A study of Homo sapiens with 18 samples.

Results

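The 77 genes described here encode mitochondrial ribosomal proteins and were taken as the rows of the deposited expression table whose symbol is MRPL or MRPS followed by a number and, in some cases, a letter A to C. They are 77 of 26372 gene symbols, 48 with the large subunit prefix MRPL and 29 with the small subunit prefix MRPS. All 77 had a mean FPKM (fragments scaled by transcript length and by a factor for each library) of at least 1, and none was listed at 0 in any library. The libraries came from SH-SY5Y, a human neuroblastoma cell line that takes on neuronal features under differentiating media, infected with a lentivirus made from the FUGW plasmid. The virus carried ZNHIT3 as wild type (WT), with the C14R substitution, or with a deletion. ZNHIT3 is a zinc finger HIT domain protein that takes part in the assembly of small nucleolar ribonucleoproteins. The treatment labels of the deletion read 251-254, 251-255 and 251-256 in replicates 1, 2 and 3, while the design text names only 251-254. Each construct was profiled at day 0 and at day 18, with 3 ribosomal RNA-depleted libraries per group and 18 in all. Differentiation was induced 48 h after infection, and day 18 cells had been kept in serum-free neurobasal/B27 plus medium with BDNF, potassium chloride, dibutyryl cyclic AMP and all-trans retinoic acid, so day, medium and added agents cannot be told apart. No group without virus was analysed here, the cells keep their own ZNHIT3 gene, and all groups come from 1 cell line.

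The mitochondrial ribosome translates the few proteins encoded by mitochondrial DNA, which are core parts of the respiratory chain and of ATP synthase. Its proteins are all encoded in the nucleus, made in the cytosol and imported, whereas its ribosomal RNAs are transcribed inside the organelle, so building it needs both genomes. Many of its proteins are counterparts of bacterial ribosomal proteins and the others occur only in mitochondria. By that background knowledge, 47 of the 77 genes were listed as bacterial counterparts and 27 as specific to mitochondria. The remaining 3 were set apart: MRPS30 and MRPS18A carry small subunit symbols but were found in the large subunit by structure, and MRPS36 belongs to the alpha-ketoglutarate dehydrogenase complex. Genes of mitochondrial DNA itself were looked up by symbol, but none had a row in the deposited expression table, so they were not analysed here.

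ZNHIT3, the delivered gene, had 531 to 542 FPKM in WT, 419 to 432 in C14R and 292 to 310 in deletion libraries at day 0. At day 18 it had 1103 to 1193, 600 to 756 and 294 to 313 FPKM, so the 3 constructs differed in its level on both days, and this difference moves with every construct comparison below. The neuroblastoma markers PHOX2A, HAND2, GATA2, GATA3, ISL1, DBH and CHGA were expressed in every group. Of 12 neuronal markers, 11 passed the filter and all 11 were called higher at day 18 in each line, while all 10 proliferation genes were called lower. Of all genes tested, 37.9% to 38.6% were called higher and 34% to 35% lower, depending on the line. Among glial, blood and fibroblast markers, GFAP, AQP4, MBP and PTPRC had a group mean under 1 FPKM everywhere, and COL1A1, COL3A1, DCN, LUM and PDGFRA were expressed. The C14R day 18 replicate 1 library stood apart on the second principal component, at 24.8 against -8.27 to 9.27 in the others. That component held 2.49% of the variance. Bulk RNA cannot tell fewer cells of a type from less RNA per cell, and nothing in the labels says that replicates were separate cultures, so p-values measure only the spread between these libraries.

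Among themselves the genes spanned a 63.4-fold range of mean FPKM over the 18 libraries. MRPL33, a small protein of the large subunit, was highest with a mean of 319 FPKM. MRPL51, a mitochondria-specific protein of the large subunit, followed at 143 FPKM, and MRPS21, a small subunit protein with a bacterial counterpart, at 114 FPKM; these 3 were the only members above 100 FPKM. At the low end stood MRPL22 at 5.04 FPKM, MRPL23 at 6.83 FPKM and MRPL57 at 7.02 FPKM, all of the large subunit. Between these ends, 60 of the 77 genes had a mean from 10 to 50 FPKM. The median member had 22.7 FPKM, against 10.7 for the median of the 13785 genes tested. Replicates were close: the median coefficient of variation over the 77 genes was between 4.46% and 5.40% in the day 0 groups and between 5.62% and 8.6% in the day 18 groups.

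The clearest difference in these genes was between the days. In the 9 day 0 libraries their FPKM summed to 2799 at the lowest, 2880 at the median and 3004 at the highest, and in the 9 day 18 libraries to 2096, 2143 and 2237. No day 18 library reached the lowest day 0 library. The day 18 mean was 74.4% of the day 0 mean in WT, 76.1% in C14R and 71.9% in deletion. Gene by gene, with limma on log2(FPKM + 1) and a Benjamini-Hochberg adjusted p under 0.05 over all genes tested, 55 of 77 were called lower and 2 higher at day 18 in WT, where 34% of all genes tested were called lower and 38.2% higher. In C14R 56 were called lower and 3 higher, against 35% and 37.9% of all genes, and in deletion 61 and 3, against 34.4% and 38.6%. In either direction 57, 59 and 64 members were called, beside 72.2%, 72.9% and 73% of all genes. The median log2 change of the members was -0.40 in WT, -0.37 in C14R and -0.41 in deletion, beside 0.03, 0.02 and 0.03 for all genes tested.

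In all 3 lines at once, 50 members were called lower, beside 29.7% of all genes tested, and 2 higher, beside 33.3%. A further 16 were called in 1 or 2 lines and 9 in none. For 45 members every day 18 library lay below every day 0 library, which held for 26.9% of all genes tested, and for 1 member every day 18 library lay above, which held for 29.8%. An exact permutation test of 3 libraries against 3 cannot give a p below 0.1, the value reached wherever the groups of a line did not overlap. Leaving the small RNA genes out and rescaling moved the median of all genes up by 0.18 (log2) in WT, 0.17 in C14R and 0.20 in deletion. Under that scaling 38, 40 and 42 members were called lower and 10, 8 and 6 higher, and among all called genes the share called higher went from 52.9% to 68.7% in WT, from 52.0% to 66.5% in C14R and from 52.8% to 69.5% in deletion. Set against the median of all genes, the members' median was -0.42, -0.38 and -0.42 with it and -0.43, -0.39 and -0.44 without it.

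**Figure D1:**
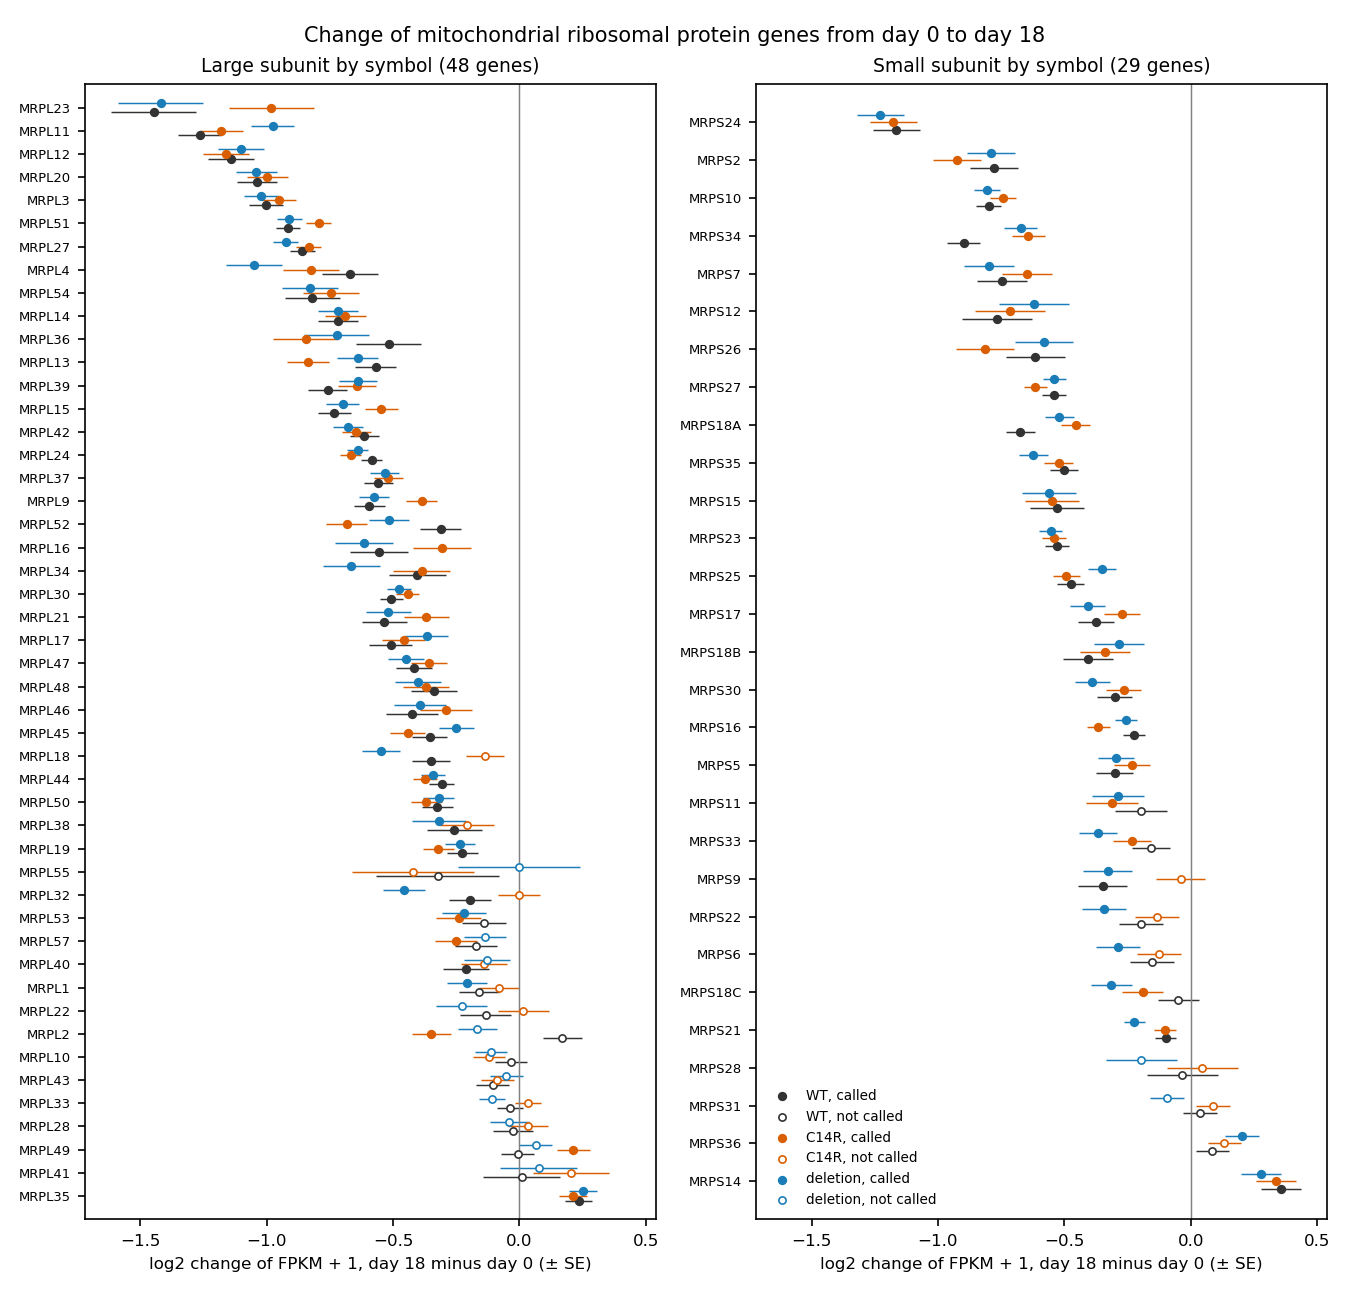
Log2 change of FPKM + 1 from day 0 to day 18 (horizontal axis, mean difference ± SE of the limma fit) for the 48 genes with large subunit symbols (left) and the 29 with small subunit symbols (right), ordered by the mean of the 3 lines; filled points were called at an adjusted p under 0.05 and open points were not. Most points lie left of 0 in both panels, with MRPL23 and MRPS24 farthest left and MRPL35 and MRPS14 farthest right.

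Among large subunit genes, MRPL12 encodes a protein of the flexible stalk that recruits translation factors and is also known to bind mitochondrial RNA polymerase. Its gene lies on the plus strand at chr17:81703357-81707526 (hg38, GENCODE 29). Its level was 88.7, 85.2 and 80.9 FPKM in the WT day 0 libraries, 83.9, 79.6 and 77.4 in C14R and 87.4, 88.4 and 88.0 in deletion. At day 18 it had 44.8, 37.7 and 32.3 in WT, 30.7, 38.5 and 37.3 in C14R and 42.1, 41.1 and 38.2 in deletion. Every day 18 library was well below every day 0 library, and in each line the level came to between 44.2% and 46.0% of day 0. The log2 change was -1.14 ± 0.09 (SE) in WT, -1.16 in C14R and -1.10 in deletion, with limma adjusted p of 4.36e-09, 3.48e-09 and 6.73e-09. A readthrough gene model, AC139530.2, shares 701 bases of exon with MRPL12 on the same strand, so some reads could belong to either.

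MRPL11, at the base of the same stalk (chr11:66435075-66466738, minus strand), fell from 18.1, 18.5 and 17.7 FPKM to 7.06, 6.80 and 6.97 in WT. In C14R it went from 18.7, 15.8 and 15.5 to 6.32, 6.70 and 7.32, and in deletion from 16.7, 15.8 and 16.3 to 6.63, 7.75 and 9.10. The days did not overlap in any line, and the log2 changes were -1.27, -1.18 and -0.98, with limma adjusted p of 4.17e-10, 1.08e-09 and 1.29e-08. MRPL11 shares 119 bases of exon with PELI3 on the other strand. MRPL3, a protein near the peptidyl transferase centre (chr3:131462212-131502983, minus strand), had 73.9, 68.9 and 71.4 FPKM on day 0, against 35.1, 35 and 35 at day 18 in WT. C14R held 76.6, 70.1 and 72.3 against 41.3, 35.7 and 34.9, and deletion 72.2, 69.1 and 71.9 against 35.6, 30.5 and 37.6. No exon of MRPL3 overlaps a neighbour's exon, though the small RNA gene SNORA58 lies inside it, and at day 18 its level was 49.1%, 51.1% and 48.6% of day 0 in WT, C14R and deletion. Its log2 changes were -1.005, -0.95 and -1.02, with limma adjusted p of 4.19e-10, 8.60e-10 and 3.11e-10.

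MRPL20, which in bacteria is needed early in building the large subunit (chr1:1401908-1407313, minus strand), had between 70.1 and 88.1 FPKM in the WT day 0 libraries and between 36.6 and 39.5 at day 18, and the other lines lay close to these values. Its log2 changes were -1.04, -0.999 and -1.04. MRPL20 shares 139 bases of exon with AL391244.1 on the other strand, and the small RNA gene RN7SL657P overlaps it on the same strand. MRPL23, which sits at the exit of the peptide tunnel (chr11:1947278-1984522, plus strand), showed the lowest mean change of the 3 lines, -1.28, at a low level. It had 9.10, 12.1 and 10.2 FPKM against 3.14, 3.83 and 2.64 in WT, 7.55, 9.18 and 10.7 against 3.60, 4.25 and 4.48 in C14R, and 9.90, 9.96 and 12.1 against 3.69, 2.18 and 4.46 in deletion. The 2 days did not overlap in any line, with log2 changes of -1.45, -0.98 and -1.42, and MRPL23 shares 85 bases of exon with the antisense gene MRPL23-AS1. MRPL51 fell from 187 ± 4.27 (SD, n = 3) to 98.8 ± 4.45 FPKM in WT, from 181 ± 7.19 to 104 ± 0.369 in C14R and from 188 ± 13.6 to 99.5 ± 3.62 in deletion. MRPL51 overlaps 486 bases of NCAPD2 exon on the other strand. NCAPD2 was itself called lower in all 3 lines, with log2 changes of -1.16, -1.12 and -1.08 in WT, C14R and deletion. Whether the authors' quantification used strand is not given in the sources used here.

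Further large subunit genes were chosen after their values were seen. All of them but MRPL47 fell in every line by more than the median of the large subunit genes. That median was -0.41 in WT, -0.38 in C14R and -0.47 in deletion. MRPL27, whose bacterial counterpart reaches into the peptidyl transferase centre, had log2 changes of -0.86, -0.83 and -0.93 in WT, C14R and deletion. MRPL4, a tunnel wall protein, had -0.67, -0.82 and -1.05, and MRPL24 had -0.58, -0.67 and -0.64. MRPL42, which is specific to mitochondria, had -0.61, -0.65 and -0.68, and MRPL47 had -0.42, -0.36 and -0.45. All 5 were called lower in all 3 lines with limma. MRPL33, the most abundant member, had 344, 321 and 337 FPKM on day 0, against 323, 339 and 315 at day 18 in WT. Its C14R libraries had 315, 302 and 320 against 347, 308 and 303, and its deletion libraries 314, 329 and 329 against 292, 316 and 294. The days overlapped in every line and MRPL33 was called in none, with limma adjusted p of 0.52, 0.58 and 0.063. The sign of its change depended on the scaling, as with the small RNA genes left out it was 0.17 in WT (adjusted p = 0.0064). MRPL33 shares 324 bases of exon with BABAM2 on the same strand.

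MRPL35 was the large subunit gene called higher in all 3 lines (chr2:86199355-86213794, plus strand). It had 19.0, 16.6 and 17.7 FPKM on day 0, against 20.8, 20.6 and 21.6 at day 18 in WT, 18.2, 16.5 and 17.8 against 21.6, 19.9 and 19.7 in C14R, and 16.7, 17.4 and 17.05 against 21.6, 20.0 and 19.9 in deletion. Every day 18 library was above every day 0 library, by a small margin. Its log2 changes were 0.23, 0.21 and 0.25, with limma adjusted p of 9.00e-04, 0.00199 and 4.74e-04.

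**Figure D2:**
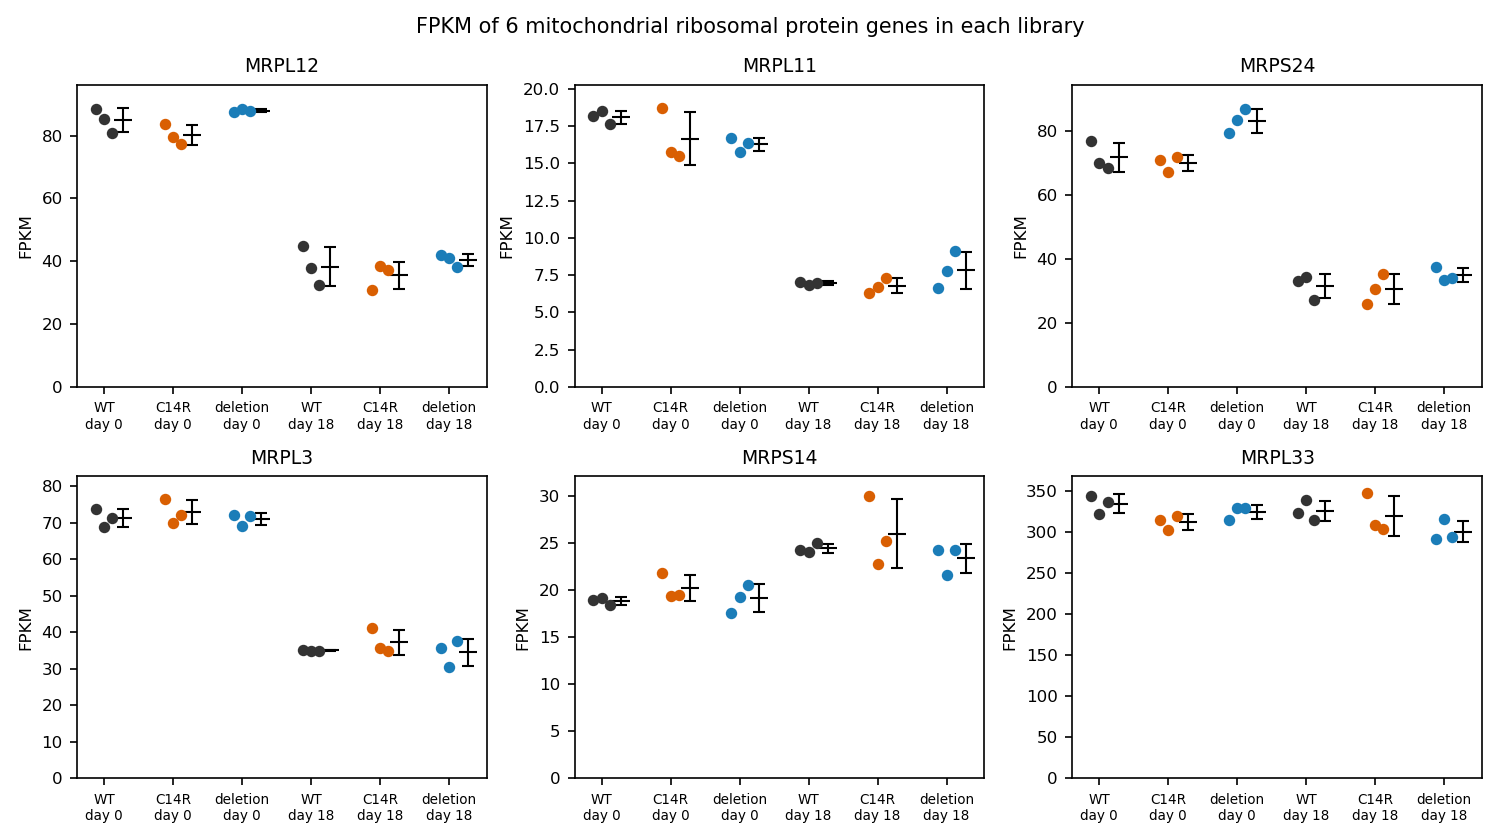
FPKM (vertical axis, from 0) of 6 genes in each of the 18 libraries, by construct and day; points are libraries and the bar beside them is the mean ± SD of 3. MRPL12, MRPL11, MRPS24 and MRPL3 have all day 18 points below all day 0 points, MRPS14 has higher points at day 18, and MRPL33 has overlapping points near its mean of 319 FPKM.

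Among small subunit genes, MRPS24 had the largest fall. It encodes a counterpart of the bacterial protein that lines the messenger RNA entry channel, and its gene lies at chr7:43866558-43869893 on the minus strand. WT had 76.99, 70.0 and 68.5 FPKM on day 0, against 33.2, 34.4 and 27.2 at day 18. C14R had 71.0, 67.3 and 71.9 against 26.0, 30.6 and 35.3, and deletion had 79.5, 83.5 and 86.9 against 37.6, 33.4 and 34.1. All day 18 libraries lay far below all day 0 libraries, with log2 changes of -1.16, -1.18 and -1.23 and limma adjusted p of 4.53e-09, 3.94e-09 and 2.18e-09. The readthrough gene URGCP-MRPS24 shares 606 bases of exon with it on the same strand. MRPS34, a mitochondria-specific protein, fell from 39.5 ± 1.59 to 20.8 ± 1.71 FPKM (SD, n = 3) in WT, from 39.2 ± 1.72 to 24.8 ± 2.63 in C14R and from 40.5 ± 1.27 to 25 ± 0.882 in deletion.

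MRPS10, MRPS2, MRPS7 and MRPS12 were also chosen after their values were seen. With MRPS24 and MRPS34 they had the largest mean falls of the small subunit genes, whose medians were -0.37, -0.34 and -0.37 in the 3 lines. MRPS10 had 32.2, 31.5 and 32.1 FPKM on day 0, against 18.0, 17.7 and 18.1 at day 18 in WT, and between 17.3 and 19.9 in the other day 18 libraries. MRPS2 had log2 changes of -0.78, -0.92 and -0.79, MRPS7 had -0.75, -0.65 and -0.80, and MRPS12, a protein of the decoding centre, had -0.77, -0.71 and -0.62. These 4 genes were called lower in all 3 lines with limma. MRPS12 shares 349 bases of exon with SARS2 on the other strand, which was itself called lower in all 3 lines. MRPS21, the most abundant small subunit gene, moved little: 120 ± 3.68 against 112 ± 7.75 FPKM in WT, 114 ± 2.13 against 106 ± 1.07 in C14R and 126 ± 1.23 against 108 ± 2.19 in deletion (SD, n = 3). It was called lower in all 3 lines with limma adjusted p of 0.044, 0.037 and 1.20e-04, and with the small RNA genes left out the change was 0.11 in WT and 0.08 in C14R. The call was lost in 9 of 19 alternatives run in WT, 9 of 18 in C14R and 1 of 19 in deletion.

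MRPS14, whose bacterial counterpart sits near the decoding centre, was the small subunit gene called higher in all 3 lines (chr1:175010789-175023425, minus strand). It had 19.0, 19.1 and 18.4 FPKM on day 0, against 24.2, 24.1 and 24.96 at day 18 in WT. C14R had 21.8, 19.4 and 19.5 against 29.97, 22.7 and 25.2, and deletion had 17.6, 19.3 and 20.5 against 24.3, 21.6 and 24.3. The days did not overlap within any line, though the highest C14R day 0 library was above the lowest deletion day 18 library. Log2 changes were 0.36, 0.34 and 0.28, with limma adjusted p of 6.57e-04, 0.00105 and 0.00463. MRPS14 shares 351 bases of exon with CACYBP on the other strand, and the small RNA gene RF00019 overlaps it on the same strand.

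The MRPS18 genes are 3 paralogs of a bacterial small subunit protein, and their changes differed in size. MRPS18A, found in the large subunit by structure, had 17.2, 17.1 and 17.2 FPKM on day 0, against 11.1, 10.4 and 9.68 at day 18 in WT, with log2 changes of -0.67, -0.46 and -0.52 in the 3 lines. It shares 604 bases of exon with RSPH9, and MRPS18C shares 1956 with ABRAXAS1, each on the other strand. MRPS18B fell from 21.0 ± 1.16 to 15.7 ± 1.66 FPKM in WT, with log2 changes of -0.40, -0.34 and -0.28. MRPS18C had 17.7, 16.6 and 19.4 FPKM on day 0, against 17.5, 18.0 and 16.2 at day 18 in WT, where the libraries overlapped and it was not called. MRPS18C was called lower in C14R at -0.19 (limma adjusted p = 0.044), a call lost in 10 of 18 alternatives run, among them 4 of the 6 that leave out 1 library. In deletion it was called lower at -0.31 (limma adjusted p = 0.0022), lost in 1 of 19, and its interaction of deletion with day, -0.26, was not called (adjusted p = 0.63). Whether the 3 paralogs differ from each other was not tested. MRPS30, also found in the large subunit, was called lower in all 3 lines at -0.30, -0.27 and -0.39. MRPS36, the gene whose protein is no part of the mitochondrial ribosome, had 19.3 ± 0.844 against 20.6 ± 1.44 FPKM in WT, 17.9 ± 1.26 against 19.7 ± 0.542 in C14R and 18.0 ± 1.30 against 20.9 ± 1.43 in deletion, and was called higher in deletion at 0.20 (limma adjusted p = 0.011), a call lost in 4 of 19 alternatives run. Its interaction of deletion with day, 0.12, was not called (limma adjusted p = 0.86).

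The question set by the choice of genes was whether the large and small subunits differed over the 6 groups. Both sets were lower at day 18. The 48 large subunit genes summed to 1853 to 1982 FPKM on day 0, against 1363 to 1452 at day 18, and the 29 small subunit genes to 944 to 1021 and 731 to 784. For neither subunit did the days overlap. The large subunit sum at day 18 was 73.1% of day 0 in WT, 75.3% in C14R and 71.1% in deletion, and the small subunit sum 76.96%, 77.5% and 73.3%. Of the large subunit genes 35, 34 and 36 of 48 were called lower in WT, C14R and deletion, with medians of -0.41, -0.38 and -0.47. Of the small subunit genes 20, 22 and 25 of 29 were called lower, with medians of -0.37, -0.34 and -0.37. Among all genes tested 34%, 35% and 34.4% were called lower. In either direction 75%, 75% and 77.1% of the large subunit genes and 72.4%, 79.3% and 93.1% of the small subunit genes were called, against 72.2%, 72.9% and 73% of all genes.

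Within each library the median log2(FPKM + 1) of the large subunit genes was below that of the small subunit genes. The difference, large minus small, was -0.11 ± 0.079 in WT day 0, -0.21 ± 0.042 in C14R day 0 and -0.14 ± 0.098 in deletion day 0 (SD, n = 3). At day 18 it was -0.18 ± 0.058, -0.10 ± 0.040 and -0.15 ± 0.048. Single libraries ran from -0.25 to -0.05 at day 0 and from -0.22 to -0.06 at day 18, and WT and deletion overlapped with each other on each day and between days. C14R day 0, at -0.23, -0.23 and -0.16, and C14R day 18, at -0.06, -0.12 and -0.13, did not overlap, which no test was run on. The mean over genes in place of the median gave -0.05, -0.04 and -0.02 at day 0 and -0.11, -0.10 and -0.08 at day 18, so for C14R the order of the days was the opposite. By this mean, WT ran from -0.06 to -0.03 at day 0 and from -0.12 to -0.09 at day 18, and deletion from -0.04 to -0.01 and from -0.08 to -0.06, so the days did not overlap in either line. C14R, from -0.09 to -0.0024 and from -0.11 to -0.08, overlapped. With MRPS30 and MRPS18A counted as large and MRPS36 left out, the median difference was between -0.39 and -0.28 at day 0 and between -0.29 and -0.26 at day 18.

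The ratio of the summed FPKM, large to small, was 1.90 to 1.97 at day 0 and 1.82 to 1.94 at day 18. By line it was 1.94 to 1.95 against 1.83 to 1.87 in WT and 1.93 to 1.94 against 1.86 to 1.89 in deletion, without overlap of the days. In C14R, 1.90 to 1.97 overlapped 1.82 to 1.94. Without MRPL33, the single most abundant member, it was 1.58 to 1.65 at day 0 and 1.41 to 1.48 at day 18, with no overlap between the days. No p is given for these summed or median values, since the genes were chosen with earlier results known.

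**Figure D3:**
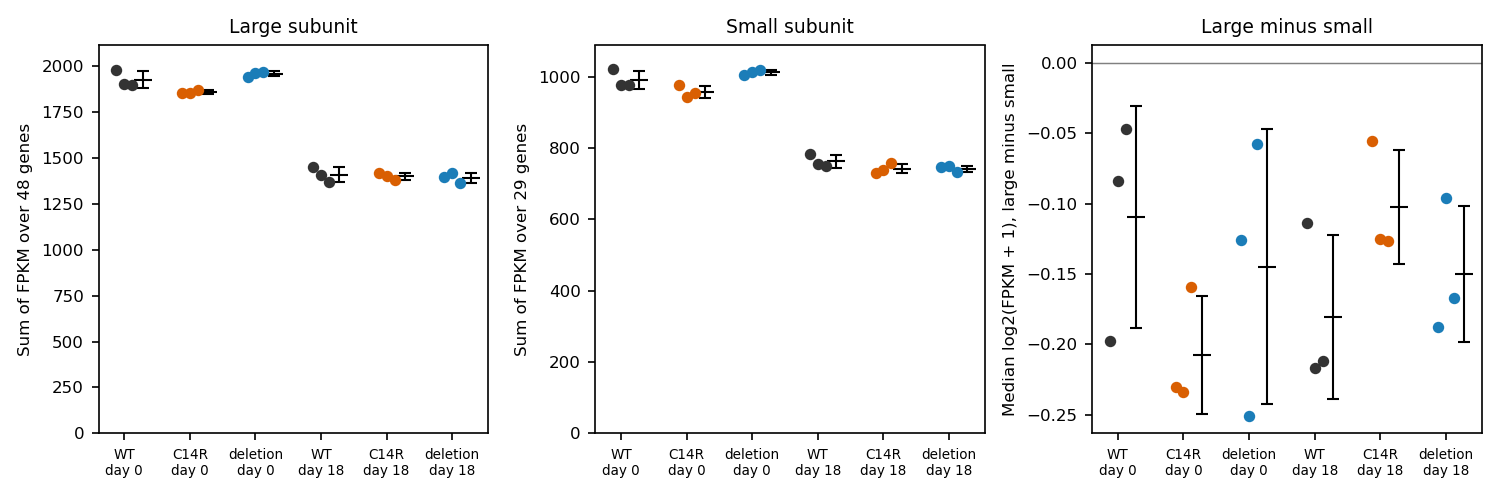
Sum of FPKM over the 48 large subunit genes (left) and the 29 small subunit genes (middle), and the difference of their median log2(FPKM + 1) (right), in each of the 18 libraries by construct and day; points are libraries and bars are the mean ± SD of 3. Both sums are lower in all day 18 libraries, while the difference lies between -0.25 and -0.05, with the 2 days overlapping in WT and deletion and apart in C14R.

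Other divisions of the 77 genes can be read against the same shares of all genes called lower, 34% in WT, 35% in C14R and 34.4% in deletion, and the medians of all genes, 0.03, 0.02 and 0.03. Of the 47 bacterial counterparts 34, 34 and 38 were called lower in WT, C14R and deletion (medians -0.42, -0.37 and -0.48), and of the 27 mitochondria-specific genes 19, 20 and 21 (medians -0.34, -0.37 and -0.37). Of the 39 more abundant members 28, 27 and 31 were called lower, and of the 38 less abundant 27, 29 and 30. Exons of 40 members overlap an exon of another gene in GENCODE 29, on the same strand in 14 and on the other strand in 29. Not every overlap of a named member, for example of MRPL4, is given above. In the 37 members with no such overlap 27, 27 and 28 were called lower, with medians of -0.40, -0.42 and -0.52. In the 40 with an overlap 28, 29 and 33 were called lower, with medians of -0.39, -0.36 and -0.40.

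The promoters of the members can be set beside these changes, since nuclear respiratory factor 1 (NRF1), the ETS family factor GABP and YY1 are known to bind upstream of many genes for mitochondrial proteins. RefSeq promoter sequences of GRCh38.p14, from 250 bases before to 50 after the gene start, matched 68 of the 77 members; MRPL2, MRPL10, MRPL13, MRPL15, MRPL21, MRPL23, MRPL35, MRPS28 and MRPS36 were not matched. The letters CCGGAAG, the core of an ETS site, were present on either strand in 41.2% of the 68 promoters, against 19.1% of 10152 promoters of tested genes and 10.7% of all 27305 promoters. AAGATGGCG, a YY1 motif that overlaps the start codon in some genes, was present in 19.1% of the members, 3.98% of tested genes and 1.85% of all promoters. The NRF1 motif, GCGCA followed by any base and GCGC, was present in 11.8%, 11.7% and 6.28%. ETS and YY1 letters can share the bases AAG, but 0 pairs of different motifs overlapped in the 68 promoters. The first set below gives the 80 bases before the start of members that fell, and of MRPL33, which was not called, with the ETS letters in capitals (CTTCCGG on the opposite strand); all are written 5′ to 3′ in the direction of the gene.
MRPL3 (chr3:131502972-131503051, minus): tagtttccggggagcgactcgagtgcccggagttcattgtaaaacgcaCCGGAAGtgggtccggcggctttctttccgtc
MRPL20 (chr1:1407294-1407373, minus): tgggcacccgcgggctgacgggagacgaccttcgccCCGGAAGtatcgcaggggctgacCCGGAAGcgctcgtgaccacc
MRPL27 (chr17:50373185-50373264, minus): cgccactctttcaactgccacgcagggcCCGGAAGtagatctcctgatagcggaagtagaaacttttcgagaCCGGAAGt
MRPS34 (chr16:1773135-1773214, minus): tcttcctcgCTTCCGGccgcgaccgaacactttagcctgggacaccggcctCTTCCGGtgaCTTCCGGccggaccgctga
MRPL33 (chr2:27771639-27771718, plus): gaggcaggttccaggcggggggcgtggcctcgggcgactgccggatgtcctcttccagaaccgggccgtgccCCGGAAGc
MRPL12 (chr17:81703287-81703366, plus): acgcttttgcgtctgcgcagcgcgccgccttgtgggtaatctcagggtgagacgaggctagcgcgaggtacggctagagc

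The MRPL12 window holds none of the 3 motifs, and that of MRPL20 holds the ETS letters at 44 and 21 bases before its start. MRPL33 holds them 8 bases before its start. These are single chosen genes, and whether the letters go with the change between days was not tested. Of the 13 members with the YY1 letters, MRPL32, MRPL36 and MRPL52 carry them before the start, at 223, at 36, and at 98 and 64 bases. The second set gives 28 bases at or just after the gene start of 5 others, chosen because the letters, in capitals, lie close to the start.
MRPS10 (chr6:42217836-42217863, minus): tcgggaccggcAAGATGGCGgcgcggac
MRPS24 (chr7:43869482-43869509, minus): ccgcttggcccAAGATGGCGgcctccgt
MRPS18A (chr6:43687766-43687793, minus): gtaggtttttgAAGATGGCGgccctcaa
MRPL42 (chr12:93467512-93467539, plus): ggattgaaacAAGATGGCGggttcgtgg
MRPS30 (chr5:44808949-44808976, plus): aatcgcgggcaAAGATGGCGgcggccag

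Among the members with a promoter sequence, 46 were called lower in all 3 lines and 22 were not. ETS letters were present in 39.1% of the first and 45.5% of the second, YY1 letters in 21.7% and 13.6%, and NRF1 letters in 10.9% and 13.6%. A match describes the sequence and not a site in use, and no match says only that these letters are not in the window.

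The constructs were compared on each day to ask whether either variant changed these genes. No member was called in C14R against WT at day 0 (0% of all genes tested were called), in deletion against WT at day 0 (0.029%), in C14R against WT at day 18 (0.0363%) or in deletion against WT at day 18 (0.0725%). C14R against deletion also had no called member at day 0 (0.058%) and day 18 (0.029%), and neither had the interaction of C14R with day (0%) or of deletion with day (0.0145%). With an unadjusted p under 0.05 in limma, the members numbered 4, 6, 13 and 7 of 77 in the 4 comparisons with WT, beside 2.81%, 6.22%, 11.1% and 11.4% of all genes. They numbered 9 and 11 in the C14R and deletion comparisons of day 0 and day 18, beside 9.84% and 11.2%, and 9 and 7 in the interactions, beside 5.73% and 7.36%. The comparisons share libraries, so their values stand side by side and were not correlated. Over the 6 comparisons between constructs, 317 of 462 log2 differences were smaller than 0.1 in size and the largest was 0.40. A difference that missed the threshold is not shown to be absent.

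Median log2 differences of the 77 genes were -0.04 for C14R against WT and 0.03 for deletion against WT at day 0, and -0.01 and 0.01 at day 18, with all genes tested within 0.01 of 0 in each. For C14R against deletion at day 0 the median was -0.05, and 58 of 77 members were negative, beside 50% of all genes tested. All C14R libraries lay below all deletion libraries for 21 members, beside 10.7% of all genes tested. Of the 6 comparisons between constructs, this one had the most members apart in this way. The summed FPKM of the members at day 0 was 2799 to 2830 in C14R, 2874 to 3004 in WT and 2949 to 2987 in deletion, so the C14R libraries did not overlap the others. Measured against the median of all genes in the same library, on the log2 scale, C14R at 1.17 to 1.29 overlapped WT at 1.23 to 1.28 and deletion at 1.28 to 1.37. At day 18 the sums were 2138 to 2150 in C14R, 2118 to 2237 in WT and 2096 to 2166 in deletion, and all 3 overlapped.

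**Figure D4:**
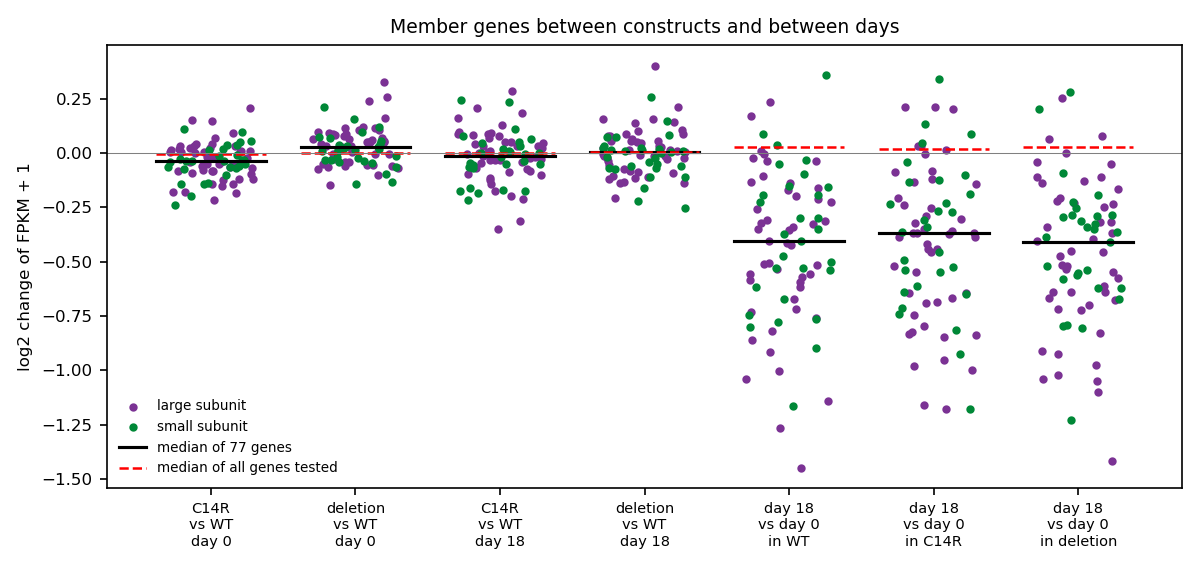
Log2 change of FPKM + 1 (vertical axis) of the 77 genes, as points coloured by subunit and spread sideways at random, in 4 comparisons between constructs and 3 between days; black lines are medians of the 77 genes and dashed red lines medians of all genes tested. Between constructs the points lie around 0, and between days their median lies between -0.41 and -0.37 while that of all genes lies near 0.

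By the rule that names the members with the smallest unadjusted p, MRPL2 recurred. MRPL2 is a core protein beside the peptidyl transferase centre (chr6:43054029-43059806, minus strand), and it had 8.34, 6.63 and 8.16 FPKM in WT, 8.83, 9.72 and 8.49 in C14R and 9.85, 9.96 and 9.86 in deletion at day 0. At day 18 it had 9.30, 8.99 and 8.03 in WT, 6.77, 6.69 and 7.11 in C14R and 8.35, 9.41 and 8.38 in deletion. The C14R libraries were thus all above WT at day 0 and all below WT at day 18. Its interaction of C14R with day, which that rule does not name and which was added to it, was -0.52 ± 0.11 (SE). The interaction had an unadjusted limma p of 1.86e-04 and a limma adjusted p of 0.41. For MRPL2 in deletion against WT at day 0 the log2 difference was 0.33 (limma adjusted p = 0.52). MRPL2 shares 373 bases of exon with KLC4 on the other strand.

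MRPL52, a mitochondria-specific protein of the large subunit, had 11.7, 12.03 and 11.9 FPKM in WT and 7.57, 9.34 and 10.6 in C14R at day 18. The groups did not overlap, and the log2 difference of -0.35 was not called (limma adjusted p = 0.12). The lowest value is that of C14R replicate 1, the library that stood apart, and without it the difference was -0.23 (adjusted p = 0.17). Without C14R replicate 3 it was -0.45 and called (adjusted p = 0.032). MRPS34 had 21.4, 22.1 and 18.9 FPKM in WT and 24.8, 24.2 and 26.0 in deletion at day 18, a log2 difference of 0.26 without overlap that was not called (adjusted p = 0.18). MRPS18C differed by -0.25 in the same comparison (adjusted p = 0.255). At day 0, MRPS18A had 17.2, 17.1 and 17.2 FPKM in WT and 15.8, 13.7 and 15.1 in C14R, and MRPL27 had 82.3, 84.0 and 82.5 against 72.2, 77.1 and 76.1. Both pairs of groups were apart, at log2 differences of -0.20 and -0.14, and both had a limma adjusted p of 1. MRPS25, a mitochondria-specific small subunit protein, was at 20.9 ± 0.847 in WT and 18.8 ± 1.53 FPKM in deletion at day 0 (SD, n = 3; log2 difference -0.14, limma adjusted p = 0.77).

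The 6 proteins of the mitochondrial ribosome that carry other symbols went the same way as the members between days. DAP3, PTCD3, CHCHD1, AURKAIP1, ICT1 and GADD45GIP1 were called lower at day 18 in all 3 lines. AURKAIP1 had mean log2 changes of -0.63 over the 3 lines, CHCHD1 of -0.50 and DAP3, a small subunit protein that binds GTP, of -0.46. Of 29 genes for assembly of the mitochondrial ribosome 18, 16 and 20 were called lower in WT, C14R and deletion and 4, 3 and 5 higher, beside 34%, 35% and 34.4% of all genes called lower and 38.2%, 37.9% and 38.6% called higher. C1QBP, an abundant matrix protein, had a mean log2 change of -1.12, from 168, 165 and 166 to 75, 80.2 and 73.2 FPKM as group means of WT, C14R and deletion. MRM1, a ribosomal RNA methyltransferase, had -0.73, whereas NGRN, needed for the large subunit RNA, had 0.69.

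Of 20 genes for mitochondrial translation factors and messenger RNA upkeep 11, 10 and 13 were called lower and 1, 1 and 2 higher. In either direction that is 60.0%, 55.0% and 75% of them, against 72.2%, 72.9% and 73% of all genes. The synthetases below were at 64.7%, 70.6% and 64.7%, and the genes for mitochondrial DNA at 70%, 70% and 80%. For this list and those that follow, 34%, 35% and 34.4% of all genes were called lower and 38.2%, 37.9% and 38.6% higher. SLIRP, which with LRPPRC keeps mitochondrial messenger RNAs stable, had a mean log2 change of -1.02, TRMU, a transfer RNA modifying enzyme, -0.68, and MRRF, the ribosome recycling factor, -0.62. Of 17 mitochondrial aminoacyl-tRNA synthetases 10 were called lower in each line and 1, 2 and 1 higher: MARS2 had -0.71 and SARS2 -0.60, while RARS2, the arginine enzyme, had 0.51 and was called higher in all 3 lines. Of 10 genes for transcription and upkeep of mitochondrial DNA 7, 7 and 8 were called lower and none higher. The helicase gene C10orf2 had -0.99, the transcription factor gene TFB2M -0.97 and the nuclease gene MGME1 -0.93. Among 8 tested regulators of nuclear genes for mitochondria 7, 6 and 7 were called lower: MYC had a mean log2 change of -3.85, PPRC1 -1.25 and ESRRA -0.96, and NRF1, chosen after its values were seen, was called in no line, at -0.22, -0.19 and -0.13. PPARGC1A and PPARGC1B were under the filter of 1 FPKM.

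**Figure D5:**
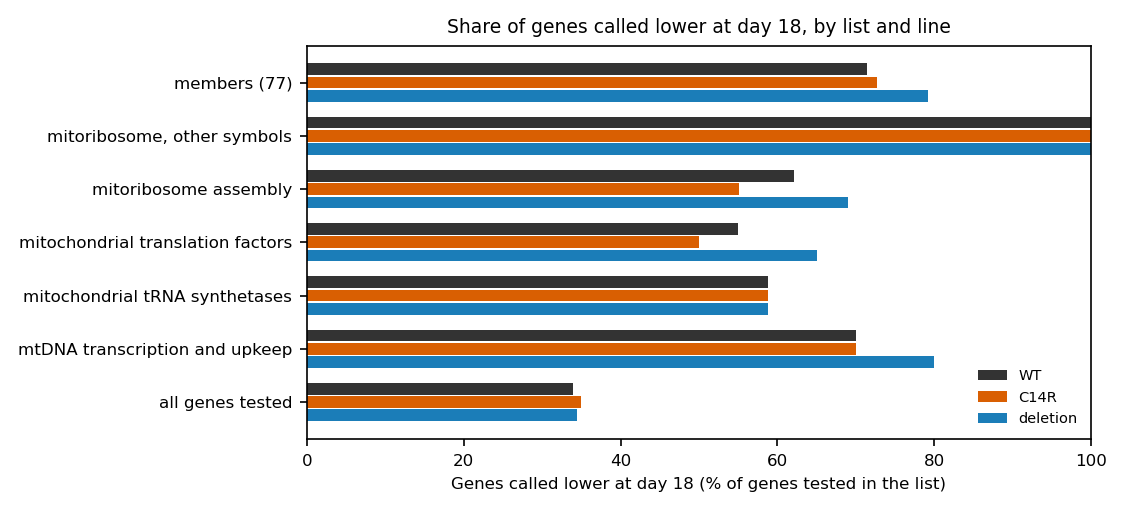
Percent of the tested genes of each list that were called lower at day 18 (horizontal axis, limma adjusted p under 0.05), by line. The 77 members are at 71.4% to 79.2%, all genes tested at 34% to 35%, and the related mitochondrial lists lie between 50% and 100%.

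Genes of the cytosolic ribosome were added after the values were seen, by symbol. Of 81 tested, 81, 78 and 81 were called lower at day 18 in WT, C14R and deletion, beside 34%, 35% and 34.4% of all genes, with medians of -0.86, -0.76 and -0.86, against -0.40, -0.37 and -0.41 for the mitochondrial members. Proliferation genes moved in the same direction, with medians of -1.64, -1.44 and -1.47 over 10 genes, 10 of 10 called lower in each line. The neuronal markers had medians of 1.28, 1.31 and 1.31 over 11 genes. The part of these cell states, and of the 4 fibroblast genes called lower alongside (COL1A1, COL3A1, DCN and LUM, while PDGFRA was called higher), in the members' fall was not tested.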

How the data were processed

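The authors deposited 1 table of FPKM values per gene symbol and library. Per the submitters' processing notes, TopHat2, STAR and Cufflinks 2.2.1 and the build hg38 were used; their roles, the annotation and the use of strand are not given in the sources used here. FPKM keeps no read totals. The FPKM sums of the libraries ran from 553539 to 2222217 and small RNA genes took 31.5% to 80.1% of them, while the upper quartile was 10.9 to 11.3 in every library. A fall between days is therefore relative to the other genes of a library. Both lowest values, 553539 and 31.5%, were those of C14R day 18 replicate 1, the library apart on the second principal component. The next lowest small RNA share was 47.3%, in WT day 18 replicate 3. From the most frequent ratio of values below 0.5 FPKM, the relative depth was estimated at 0.831 to 1.19 times WT replicate 1 at day 0. At day 18 the estimate was 0.82 to 0.998 times. That ratio held for only 11.6% to 19.6% of the genes compared at day 0 and 8.32% to 13.4% at day 18.

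Groups were taken from the treatment labels and the day in the titles. The fit was limma 3.58.1 in R 4.3.3 on log2(FPKM + 1), with 6 group means over 18 libraries, genes of mean FPKM at least 1 (13785), a mean-variance trend and Benjamini-Hochberg adjustment, called at 0.05. Log2 changes on this scale understate those of low genes. The limma script was run on simulated data with independent noise and few changed genes. Most genes were called between days here, so that run checks the code and not the calls. Members were matched to GENCODE 29 by symbol, all 77, and promoters to RefSeq. The members and all lists were chosen with earlier results of these data known, and list counts were given beside all genes, with no test of a list. Named members were the 6 largest falls and rises called in all 3 lines (only 2 rises existed), any member called in a variant comparison or interaction, otherwise the 2 smallest unadjusted p in each comparison of a variant with WT, the 3 highest and 3 lowest levels, the MRPS18 genes, MRPS30, MRPS36 and MRPL12, and from other lists up to 3 genes with the largest change. Others are said to have been chosen after their values were seen.

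Alternatives were a pseudocount of 0.1, no filter or a mean of at least 5 FPKM, median-of-ratios scaling, quantile normalization, leaving out small RNA genes, a replicate block, no trend, array weights, only the compared libraries and leaving out each replicate. Removal of GC and length trends, leaving out C14R day 18 replicate 1 where it was not compared, and leaving out the 4 day 0 libraries with the highest FPKM sums were added after seeing the data. Some marker genes are not reported here.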

Additional observations from a re-analysis of the deposited data

How the results depend on the processing

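The members' fall between days kept its direction in all alternatives run: the median log2 change ran from -0.45 to -0.21 in WT, -0.41 to -0.19 in C14R and -0.46 to -0.19 in deletion, with 38 to 62, 40 to 58 and 42 to 65 members called lower. Leaving out a replicate left 55 to 58, 54 to 58 and 60 to 65 called in either direction. Between constructs and in the interactions no member was called in any alternative run, except in C14R against WT at day 18, where array weights gave 1 (MRPL24) and leaving out a replicate gave 0 to 1 (MRPL24 without C14R replicate 2 and MRPL52 without C14R replicate 3); the cause was not tested.

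Replicate numbers did not pair the libraries: same-numbered libraries of a day had correlations of their deviations from -0.36 to 0.13, and 3 of 18 correlated best with their own number. With the number as a replicate block 55, 58 and 64 members were called between days in WT, C14R and deletion, and 0 in every comparison of constructs.

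Large minus small by structure was -0.3572, -0.3853 and -0.2833 at day 0 and -0.2864, -0.2572 and -0.2617 at day 18 in WT, C14R and deletion. This setting differs only in that MRPS30 and MRPS18A were counted as large and MRPS36 was left out. With the subunits by symbol again and the mean over genes in place of the median, the difference was -0.0388 in C14R day 0, -0.0183 in deletion day 0, -0.1080 in WT day 18 and -0.0761 in deletion day 18.

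Changes of sign between days were limited to 3 of the named members whose day changes were followed through the alternatives, and their causes were not tested. The day changes of MRPL2, MRPL22, MRPL52, MRPL57 and MRPS25 were not followed in this way. MRPL33 in WT was 0.26 with quantile normalization, 0.17 with small RNA genes left out and 0.14 with GC and length trends removed; in deletion it was 0.11 under each of the 3. MRPL33 in C14R was -0.0081 with median-of-ratios scaling, -0.0334 with array weights and -0.0290 without C14R day 18 replicate 1, with up to 0.0686 when another replicate was left out. MRPS21 in WT was 0.0114 with quantile normalization and 0.11 with small RNA genes left out, and in C14R 0.0836 with the latter. MRPS18C in WT was 0.149 with small RNA genes left out and from -0.0986 to 0.0076 when a replicate was left out, highest without WT day 0 replicate 3.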
